A study of Homo sapiens with 12 samples.

Results

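The class I and class II histone deacetylases are 10 genes, HDAC1 to HDAC10, and 17 probes of the array were matched to them through the RefSeq accession of each probe, out of 34127 probes and 27522 gene names on the array. Class I held HDAC1, HDAC2, HDAC3 and HDAC8, class IIa held HDAC4, HDAC5, HDAC7 and HDAC9, and class IIb held HDAC6 and HDAC10. HDAC8 had 4 probes, HDAC2, HDAC4, HDAC6 and HDAC9 had 2 each, and the other genes had 1. For a gene with several probes, the probe with the highest mean over all arrays is called probe 1 and stands for the gene in the counts below, and the other probes are described beside it.

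These enzymes remove acetyl groups from lysine. Class I enzymes are mainly nuclear and act on histones. HDAC1 and HDAC2 form the catalytic core of the Sin3, NuRD, CoREST and MiDAC complexes, whereas HDAC3 works in the NCoR complex. Class IIa enzymes have weak catalytic activity of their own and move between nucleus and cytoplasm. Kinases phosphorylate them, 14-3-3 proteins hold the phosphorylated forms in the cytoplasm, and in the nucleus they repress MEF2 transcription factors. HDAC6 is largely cytoplasmic and deacetylates tubulin, and HDAC10 acts on acetylated polyamines. Inositol phosphates bind between HDAC1 or HDAC3 and the corepressors.

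The measured material was cytoplasmic RNA of U2OS cells, a human osteosarcoma line, transfected with 20 nM of a control siRNA or of an siRNA against DBP5, GLE1 or IPPK, with 3 arrays for each siRNA. DBP5 (gene symbol DDX19B) is an RNA helicase of the nuclear pore, GLE1 is its activator, and IPPK is the kinase that makes inositol hexakisphosphate, a cofactor of GLE1. According to the methods, cells were grown for 48 h after transfection and the arrays came from independent experiments. The labels do not number the siRNA used against each target. The study asked whether these 3 mRNA export factors change the same or separate sets of cytoplasmic mRNAs, and HDAC1 was also measured there by real-time PCR, which was not analysed here. That work covered nuclear and cytoplasmic HDAC1 mRNA and co-depletion of an exosome component. From it the study proposes that these knock-downs, GLE1 above all, may speed the decay of HDAC1 mRNA in the nucleus, which was not tested here.

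Values are log2 spot intensity after background subtraction and cyclic loess normalization, so that a difference of 1 means a 2-fold change. The normalization brings the arrays to a common level, so each rise or fall is relative to the other transcripts. The median over all genes is therefore held near 0. The study reports that poly(A) RNA accumulated in the nucleus in each knock-down, and a loss of cytoplasmic mRNA shared by most genes would not show in these values. The targeted genes were reduced in their own knock-downs. DDX19B was at 0.0643 ± 0.00121 of control (SD, n = 3) after DBP5 siRNA, GLE1 at 0.102 ± 0.0274 after GLE1 siRNA, and IPPK at 0.187 ± 0.00815 after IPPK siRNA. DDX19B was also at 0.49 of control after GLE1 siRNA and IPPK at 0.42 after DBP5 siRNA. The share of probes well above background was 74.8% to 77.4% per control array and 70.9% to 73.8% per IPPK array. Of 9 osteoblast lineage markers, 7 were well above background on all 12 arrays, COL1A2 on 5 and IBSP on 0. Of 9 markers of epithelial, haematopoietic and endothelial cells, EPCAM, KRT19, PTPRC, CD14, CDH5 and VWF were well above background on all 12 arrays, CD3E on 11, CDH1 on 8 (0 of them control arrays) and PECAM1 on 4. The summed level of these 9 markers was 10.27 to 10.51 on the log2 scale on control arrays, 9.85 to 10.07 after DBP5 siRNA, 10.32 to 10.51 after GLE1 siRNA and 9.68 to 10.05 after IPPK siRNA. Single markers moved within this sum. Of the 3 epithelial markers, KRT19 was higher after GLE1 siRNA (by 0.84, limma adjusted p = 7.22e-06), and EPCAM and KRT19 were lower after DBP5 and IPPK siRNA. CDH1 passed the filter only through knock-down arrays, so it is not compared with the control arrays. Of the 3 endothelial markers, VWF was higher after GLE1 siRNA by 0.54 (0.000258), and lower by 0.41 after DBP5 siRNA (0.00201) and by 0.69 after IPPK siRNA (5.44e-05). PECAM1 was well above background on 1 control array, so it is not compared with the control arrays either. Of the 8 osteoblast lineage markers tested, 2, 2 and 3 were lower and 1, 1 and 2 higher after DBP5, GLE1 and IPPK siRNA, with differences between -2.13 (SPP1 after GLE1 siRNA) and 1.43 (SPP1 after IPPK siRNA). MALAT1, an RNA retained in the nucleus, was lower by 0.53 after DBP5 siRNA (limma adjusted p = 0.0559) and by 0.33 after GLE1 siRNA (0.214), and fell by 1.08 after IPPK siRNA (0.00133). The part of these marker levels in the results below was not tested.

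All 17 probes passed the filter on dim probes, and 16 of them were well above background on all 12 arrays. The exception was probe 2 of HDAC4, on 10 arrays. With the brightest probe of each gene, 2 of the 10 deacetylases fell and 3 rose after DBP5 siRNA, where limma called 54.2% of all 20821 gene names at an adjusted p of 0.05 (27.5% lower and 26.7% higher). After GLE1 siRNA 2 fell and 3 rose, with 61.9% of all gene names called (31.4% lower and 30.5% higher). After IPPK siRNA 2 fell and 4 rose, with 55.2% called (28% lower and 27.2% higher). The share of deacetylases that changed was thus near that of all genes in each knock-down. Their median difference from control was 0.06, 0.01 and 0.02, beside -0.02, 0.01 and -0.03 over all gene names. HDAC2, HDAC6 and HDAC9 rose in each knock-down by these probes, HDAC1 and HDAC3 fell after GLE1 siRNA, and HDAC5 fell after DBP5 and IPPK siRNA. By the methods' t-test, a paired test on each probe alone, the calls of HDAC2, HDAC3, HDAC5, HDAC6 and HDAC9 after DBP5 siRNA missed the threshold (adjusted p = 0.0541, 0.0853, 0.0873, 0.0545 and 0.0521), as did those of HDAC3 and HDAC9 after IPPK siRNA (0.135 and 0.0786). The knock-downs share the control arrays, so their differences from control are not independent of each other. In a bulk RNA sample, fewer cells that hold a transcript and less of it per cell cannot be told apart.

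**Figure D1:**
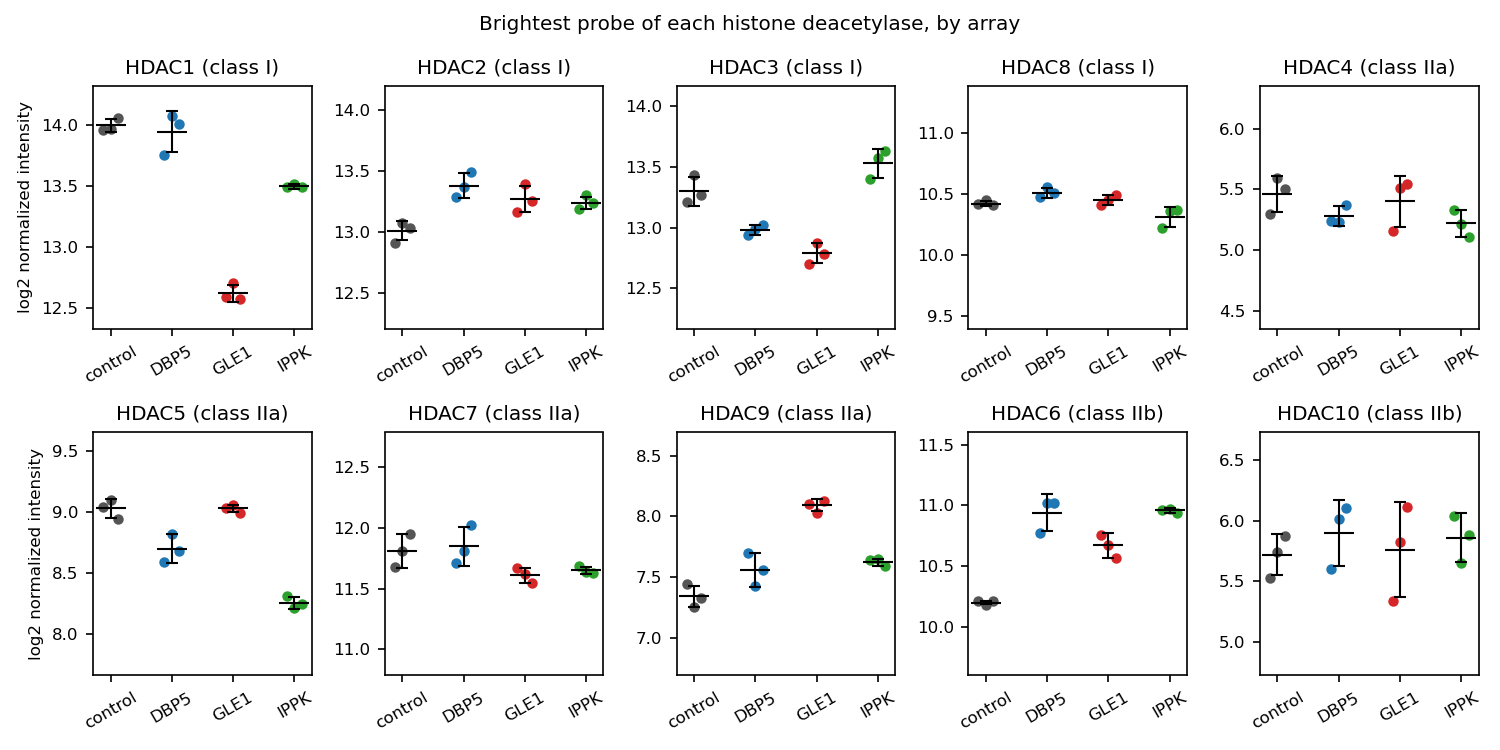
Log2 normalized intensity (y axis) of the brightest probe of each of the 10 deacetylases on each array, by siRNA (x axis). Points are arrays, horizontal lines are group means and bars are the SD over 3 arrays, and each panel spans 2 log2 units around its own midpoint. HDAC1 lies lowest after GLE1 siRNA (12.57 to 12.70, against 13.96 to 14.06 on control arrays) and HDAC5 lowest after IPPK siRNA (8.21 to 8.31, against 8.94 to 9.10).

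HDAC1, a catalytic subunit of several corepressor complexes, had the largest fall among the brightest probes of the 10 genes. It was measured by 10 spots on each array, of which 8 to 10 were used, and the SD over the spots of an array was 0.0256 to 0.0856. Its log2 intensity was 13.96, 13.97 and 14.06 on the control arrays, 13.76, 14.08 and 14.01 after DBP5 siRNA, 12.59, 12.70 and 12.57 after GLE1 siRNA, and 13.49, 13.52 and 13.49 after IPPK siRNA. The 3 GLE1 arrays lay below all other arrays, the 3 IPPK arrays lay below all control and DBP5 arrays, and the DBP5 arrays overlapped the control arrays. HDAC1 fell by 1.37 after GLE1 siRNA (95% interval -1.55 to -1.2, limma adjusted p = 9.8e-08), to 0.386 ± 0.0178 of control (SD, n = 3). After IPPK siRNA it fell by 0.50 (-0.67 to -0.32, adjusted p = 0.000302), to 0.709 ± 0.00898 of control. After DBP5 siRNA the difference was -0.05 (-0.22 to 0.13, adjusted p = 0.677). On the slides taken singly, the difference between GLE1 and control arrays was -1.37, -1.27 and -1.48, and that between IPPK and control arrays was -0.47, -0.45 and -0.57. The order of the levels was therefore control and DBP5 knock-down, which did not differ beyond their spread, then IPPK knock-down, then GLE1 knock-down.

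HDAC2, the close paralog of HDAC1, moved the other way. Probe 1, again measured by 10 spots, was at 12.91, 13.07 and 13.03 on the control arrays, 13.29, 13.37 and 13.49 after DBP5 siRNA, 13.16, 13.39 and 13.25 after GLE1 siRNA, and 13.19, 13.30 and 13.24 after IPPK siRNA. All knock-down arrays lay above all control arrays. HDAC2 rose by 0.38 after DBP5 siRNA (0.21 to 0.54, limma adjusted p = 0.00151), by 0.26 after GLE1 siRNA (0.09 to 0.43, adjusted p = 0.0111) and by 0.24 after IPPK siRNA (0.07 to 0.41, adjusted p = 0.0203). No difference between knock-downs passed for this probe (adjusted p = 0.225, 0.821 and 0.157). With the mean of both HDAC2 probes all 3 passed, at 0.65 for GLE1 against DBP5 (0.000248), 1.16 for GLE1 against IPPK (2.93e-06) and 0.50 for DBP5 against IPPK knock-down (0.00178). The rise after IPPK siRNA missed the threshold without control array 1 (0.19, adjusted p = 0.0794), without IPPK array 2 (0.21, 0.0709), with normexp background correction (0.18, 0.108) and with the mean of both HDAC2 probes (0.17, 0.188).

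HDAC3, the catalytic subunit of the NCoR complex, was at 13.21, 13.43 and 13.27 on the control arrays, 12.94, 12.99 and 13.02 after DBP5 siRNA, 12.70, 12.87 and 12.78 after GLE1 siRNA, and 13.40, 13.57 and 13.63 after IPPK siRNA. The DBP5 and GLE1 arrays lay below all control arrays, and the IPPK arrays overlapped them at their upper end. HDAC3 fell by 0.32 after DBP5 siRNA (-0.50 to -0.15, limma adjusted p = 0.00555) and by 0.52 after GLE1 siRNA (-0.69 to -0.34, adjusted p = 0.000198), to 0.699 ± 0.041 of control (SD, n = 3). After IPPK siRNA it rose by 0.23 (0.05 to 0.41, adjusted p = 0.0313). That rise missed the threshold under scaling to the 75th percentile (0.21, adjusted p = 0.0548) and without control array 1 (0.18, 0.115), control array 3 (0.21, 0.0853), IPPK array 2 (0.21, 0.0896) or IPPK array 3 (0.18, 0.117). On single slides it was 0.19, 0.14 and 0.36.

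HDAC8, a class I enzyme that deacetylates the cohesin subunit SMC3, did not pass against control by its brightest probe. This probe was at 10.42, 10.45 and 10.41 on the control arrays, 10.48, 10.56 and 10.51 after DBP5 siRNA, 10.41, 10.45 and 10.49 after GLE1 siRNA, and 10.22, 10.36 and 10.37 after IPPK siRNA. The DBP5 arrays lay above and the IPPK arrays below all control arrays, each by a small margin. The differences were 0.09 (-0.03 to 0.21, limma adjusted p = 0.173), 0.03 (-0.09 to 0.14, 0.71) and -0.11 (-0.22 to 0.01, 0.102).

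The promoters of the 3 class I genes that changed against control by their brightest probes are shown. They run from 250 bases before to 50 bases after the transcription start in RefSeq (GRCh38.p14), in 5′ to 3′ direction on the strand of the gene. HDAC1 lies at chr1:32291833-32292132 on the plus strand, HDAC2 at chr6:113971099-113971398 on the minus strand and HDAC3 at chr5:141636800-141637099 on the minus strand. Capitals mark matches, on either strand, to the GC box GGGCGG (found in 45.0% of all 35116 promoters of this length) and the CCAAT box (CCAAT, 34.6%).
HDAC1: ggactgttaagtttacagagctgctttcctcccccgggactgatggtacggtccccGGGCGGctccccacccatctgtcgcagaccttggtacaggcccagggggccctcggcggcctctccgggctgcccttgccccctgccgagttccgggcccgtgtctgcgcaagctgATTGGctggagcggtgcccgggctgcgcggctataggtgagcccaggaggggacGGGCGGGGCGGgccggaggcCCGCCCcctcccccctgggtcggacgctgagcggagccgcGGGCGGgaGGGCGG
HDAC2: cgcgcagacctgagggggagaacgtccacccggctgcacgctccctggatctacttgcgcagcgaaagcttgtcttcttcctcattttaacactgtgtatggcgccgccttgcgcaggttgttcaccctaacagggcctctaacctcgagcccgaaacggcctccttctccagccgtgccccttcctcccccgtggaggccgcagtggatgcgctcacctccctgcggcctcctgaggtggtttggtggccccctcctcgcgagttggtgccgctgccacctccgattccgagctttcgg
HDAC3: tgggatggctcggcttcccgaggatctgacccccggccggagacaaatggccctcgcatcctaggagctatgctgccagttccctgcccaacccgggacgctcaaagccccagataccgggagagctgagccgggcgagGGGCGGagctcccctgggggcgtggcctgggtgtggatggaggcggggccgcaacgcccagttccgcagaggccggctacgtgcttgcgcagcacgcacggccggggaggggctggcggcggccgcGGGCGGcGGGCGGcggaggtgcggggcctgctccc
The HDAC1 promoter held 6 GC boxes, a pair of which overlap, and 1 CCAAT box, with a GC content of 73.7%. The HDAC3 promoter held 3 GC boxes with a GC content of 74.0%. The HDAC2 promoter held neither motif and had a GC content of 64.0%, and that of HDAC8, which is not printed, held neither and had 49.3%. GC boxes were also found at genes that rose or did not pass. Of the promoters listed for HDAC9 and HDAC6, which rose by their brightest probes, 1 of HDAC9 held 3 GC boxes and 1 of HDAC6 held 4, and the promoter of HDAC10, which did not pass, held 4. An E2F-type sequence (TTTNNCGC, in 6.89% of promoters) and the cyclic AMP response element TGACGTCA (in 1.85%) were searched on both strands as well, and had no match in the 4 class I promoters. These matches describe the letters of the windows and say nothing about binding.

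Class IIa showed 1 fall, that of HDAC5. HDAC5, a signal-responsive repressor of MEF2 factors, was at 9.04, 9.10 and 8.94 on the control arrays, 8.59, 8.82 and 8.68 after DBP5 siRNA, 9.03, 9.06 and 8.99 after GLE1 siRNA, and 8.31, 8.21 and 8.24 after IPPK siRNA. The IPPK arrays lay below all other arrays, the DBP5 arrays lay between them and the controls, and the GLE1 arrays overlapped the controls. HDAC5 fell by 0.77 after IPPK siRNA (-0.92 to -0.62, limma adjusted p = 3.88e-06), to 0.585 ± 0.022 of control (SD, n = 3), and by 0.33 after DBP5 siRNA (-0.48 to -0.18, adjusted p = 0.0018). After GLE1 siRNA the difference was 0.00 (-0.15 to 0.15, adjusted p = 0.998). On single slides, the difference between IPPK and control arrays was -0.73, -0.89 and -0.70.

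HDAC9, another repressor of MEF2 factors, rose in each knock-down. Probe 1 was at 7.44, 7.25 and 7.33 on the control arrays, 7.70, 7.43 and 7.56 after DBP5 siRNA, 8.10, 8.03 and 8.13 after GLE1 siRNA, and 7.64, 7.65 and 7.59 after IPPK siRNA. The GLE1 arrays lay above all other arrays, the IPPK arrays lay above the controls, and 1 DBP5 array lay within the range of the controls. HDAC9 rose by 0.75 after GLE1 siRNA (0.59 to 0.92, limma adjusted p = 7.17e-06), to 1.69 ± 0.0605 times control (SD, n = 3), and by 0.29 after IPPK siRNA (0.12 to 0.46, adjusted p = 0.00742). The rise after DBP5 siRNA was 0.23 (0.06 to 0.40, adjusted p = 0.0246). It missed the threshold under scaling to the 75th percentile (0.18, adjusted p = 0.148) and without control array 2 (0.18, 0.0904), control array 3 (0.22, 0.0611), DBP5 array 1 (0.16, 0.0821) or DBP5 array 3 (0.23, 0.0538). Probe 2, designed to another transcript (NM_058176, against NM_014707 for probe 1), gave rises of 0.50, 0.88 and 0.37 after DBP5, GLE1 and IPPK siRNA (adjusted p = 0.0021, 2.73e-05 and 0.0123). The rises of probe 2 were 0.24, 0.38 and 0.18 with normexp background correction and 0.21, 0.37 and 0.17 in the authors' processed values, and passed in both. By the methods' t-test those after DBP5 and IPPK siRNA missed the threshold (0.0827 and 0.139), and under scaling to the 75th percentile that after IPPK siRNA did (0.26, 0.0516).

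HDAC4 and HDAC7, also class IIa repressors, did not pass against control by their brightest probes. HDAC7 was at 11.68, 11.81 and 11.95 on the control arrays, 11.71, 11.81 and 12.02 after DBP5 siRNA, 11.67, 11.62 and 11.55 after GLE1 siRNA, and 11.69, 11.64 and 11.63 after IPPK siRNA. The GLE1 arrays lay just below the controls, at -0.20 (-0.40 to -0.01, limma adjusted p = 0.0688). This difference passed under scaling to the 75th percentile (-0.25, adjusted p = 0.0295), under quantile normalization (-0.22, 0.0474), with normexp background correction (-0.21, 0.047), in the authors' processed values (-0.24, 0.0231), and without control array 1 (-0.27, 0.0282), DBP5 array 1 (-0.20, 0.0499) or DBP5 array 3 (-0.20, 0.0344). Probe 1 of HDAC4, which matches a transcript listed as non-coding (NR_026664), was between 5.11 and 5.59 on all 12 arrays, with differences of -0.18, -0.06 and -0.24 (adjusted p = 0.212, 0.692 and 0.089). The difference after IPPK siRNA passed under scaling to the 75th percentile (-0.37, adjusted p = 0.00873), under quantile normalization (-0.29, 0.0341), in the authors' processed values (-0.12, 0.0496), and without control array 1 (-0.33, 0.0418) or GLE1 array 1 (-0.24, 0.0379).

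Probe 2 of HDAC4 matches the coding transcript NM_006037 and was well above background on 2 of 3 control arrays, 2 of 3 GLE1 arrays and all DBP5 and IPPK arrays. It was at 4.87, 4.77 and 3.76 on the control arrays, 5.16, 5.42 and 4.04 after DBP5 siRNA, 4.43, 5 and 4.04 after GLE1 siRNA, and 5.60, 6.19 and 5.70 after IPPK siRNA. The third array was the lowest of each of the control, DBP5 and GLE1 groups, and the IPPK arrays lay above all others. This probe passed the filter only through the DBP5 and IPPK groups, so its differences from control are a description and no test of a rise. The difference after IPPK siRNA was 1.37 (0.46 to 2.28, limma adjusted p = 0.0156). It missed the threshold without control array 3 (1.01, adjusted p = 0.0632), without IPPK array 2 (1.19, 0.0567) and by the methods' t-test (0.111). With normexp background correction and in the authors' processed values the difference of this probe was 0.50 and passed, which is a description for the same reason.

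HDAC6, the class IIb tubulin deacetylase, rose in each knock-down by its brightest probe. Probe 1 was at 10.21, 10.18 and 10.21 on the control arrays, 10.77, 11.02 and 11.02 after DBP5 siRNA, 10.76, 10.67 and 10.57 after GLE1 siRNA, and 10.96, 10.97 and 10.94 after IPPK siRNA. All knock-down arrays lay above all control arrays. The rise was 0.74 after DBP5 siRNA (0.57 to 0.90, limma adjusted p = 1.21e-05), 0.47 after GLE1 siRNA (0.30 to 0.63, adjusted p = 0.000262) and 0.76 after IPPK siRNA (0.59 to 0.92, adjusted p = 9.64e-06). On single slides the rises were 0.56, 0.84 and 0.82 for DBP5, 0.55, 0.49 and 0.36 for GLE1, and 0.75, 0.79 and 0.73 for IPPK.

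Probe 2 of HDAC6 matches the same transcript (NM_006044) and gave the opposite direction in 2 of the 3 knock-downs. It was at 8.15, 8.20 and 8.18 on the control arrays, 7.70, 7.84 and 7.73 after DBP5 siRNA, 7.24, 7.14 and 7.19 after GLE1 siRNA, and 8.42, 8.43 and 8.38 after IPPK siRNA. The 4 groups did not overlap. By this probe HDAC6 fell by 0.42 after DBP5 siRNA (-0.53 to -0.30, limma adjusted p = 4.78e-05) and by 0.99 after GLE1 siRNA (-1.10 to -0.87, adjusted p = 4.83e-08), and rose by 0.23 after IPPK siRNA (0.12 to 0.35, adjusted p = 0.00262). With the mean of both HDAC6 probes the difference was 0.16 after DBP5 siRNA (adjusted p = 0.0357), -0.26 after GLE1 siRNA (0.00237) and 0.50 after IPPK siRNA (3.33e-05), so the direction of HDAC6 after DBP5 and GLE1 siRNA depends on the probe.

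HDAC10, the polyamine deacetylase of class IIb, was between 5.34 and 6.11 on all 12 arrays. Its differences from control were 0.18 (-0.26 to 0.63), 0.04 (-0.40 to 0.49) and 0.14 (-0.30 to 0.59), with limma adjusted p = 0.486, 0.879 and 0.579. The 4 groups overlapped.

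**Figure D2:**
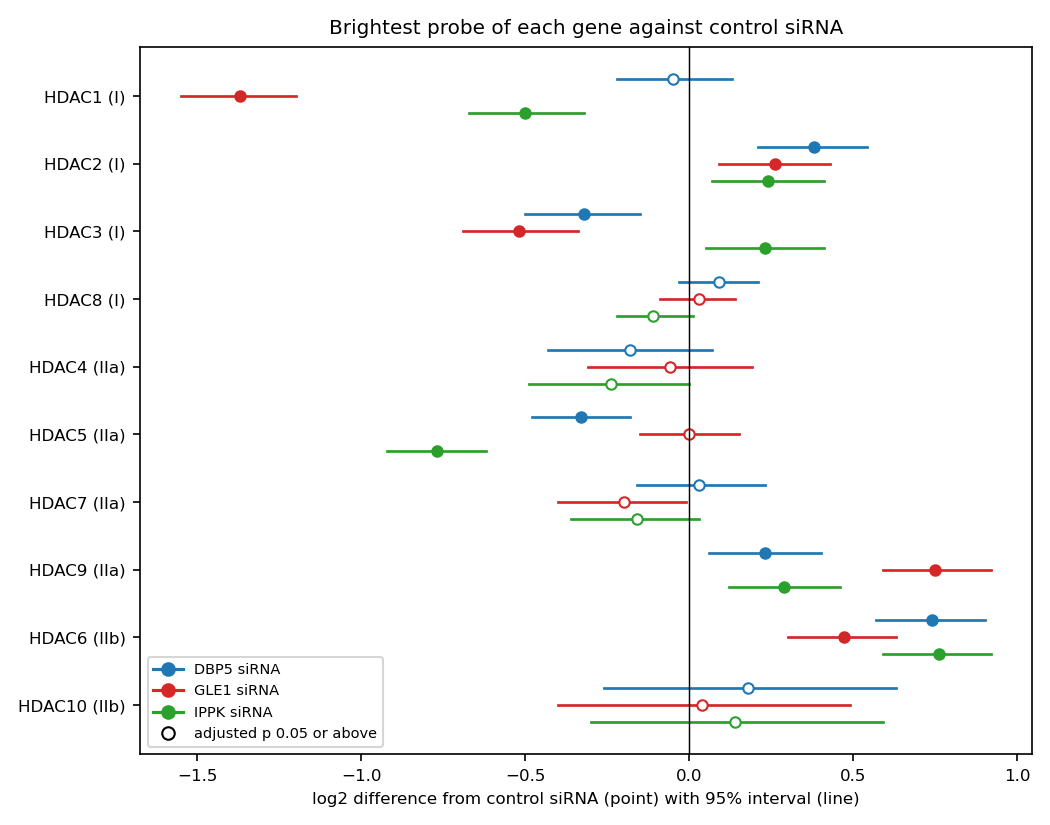
Log2 difference from control siRNA (x axis) of the brightest probe of each deacetylase (y axis, class in parentheses) after DBP5, GLE1 and IPPK siRNA. Points are differences of means over 3 arrays each, lines are 95% intervals of limma, and open points had an adjusted p of 0.05 or above. HDAC1 after GLE1 siRNA (-1.37) lies furthest from 0, and HDAC6 (0.74, 0.47 and 0.76) lies right of 0 in all 3 knock-downs.

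The probes of HDAC2 differed in the size of the change, and those of HDAC8 also in direction. Probe 2 of HDAC2, designed to the same accession as probe 1 (NM_001527), was at 5.32, 5.44 and 5.41 on the control arrays, 6.41, 6.14 and 6.49 after DBP5 siRNA, 7.65, 7.75 and 7.91 after GLE1 siRNA, and 5.10, 5.58 and 5.76 after IPPK siRNA. The GLE1 arrays lay above the DBP5 arrays, which lay above the others, and the IPPK arrays overlapped the controls. It rose by 0.96 (0.62 to 1.31, limma adjusted p = 0.000367) after DBP5 siRNA and by 2.38 (2.04 to 2.73, adjusted p = 2.7e-07) after GLE1 siRNA, the latter to 5.22 ± 0.473 times control (SD, n = 3), with 0.09 (adjusted p = 0.649) after IPPK siRNA. With normexp background correction the rises of HDAC2 probe 2 were 0.42 and 1.25, and in the authors' processed values 0.42 and 1.22. By the methods' t-test the rise after DBP5 siRNA missed the threshold (0.0598). Both probes thus rose after DBP5 and GLE1 siRNA in the limma fit.

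Among the HDAC8 probes, probe 3 (NM_018486, the accession of probe 1) was at 8.06, 8.08 and 8.07 on the control arrays and at 8.62, 8.78 and 8.59 after DBP5 siRNA. Probe 4, designed to the transcript NM_001166419, was at 8.04, 7.90 and 8.11 on the control arrays and at 6.89, 6.83 and 7.10 after DBP5 siRNA. The DBP5 arrays lay above all controls for the first and below them for the second. Probe 3 rose by 0.59 (0.47 to 0.72, limma adjusted p = 7.22e-06) and probe 4 fell by 1.08 (-1.26 to -0.90, adjusted p = 1.42e-06), to 0.474 ± 0.0472 of control (SD, n = 3), on the same arrays. Probe 4 of HDAC8 stood at -0.71 both with normexp background correction and in the authors' processed values. After IPPK siRNA probe 3 rose by 0.24 (adjusted p = 0.00376) while probe 4 stood at -0.17 (0.0935). After GLE1 siRNA probe 4 fell by 0.22 (0.0329) and probe 2, of transcript NM_001166422, rose by 0.14 (0.032). Neither GLE1 call was stable. Probe 2 of HDAC8 missed the threshold under scaling to the 75th percentile (adjusted p = 0.0997), under quantile normalization (0.113), in the authors' processed values (0.0536) and by the methods' t-test (0.055), and probe 4 missed it by the methods' t-test (0.0748). Leaving out single arrays also ended both calls: that of probe 4 without control array 1 (adjusted p = 0.0833), control array 3 (0.116), GLE1 array 1 (0.097) or GLE1 array 2 (0.0879), and that of probe 2 without control array 2 (0.0705), control array 3 (0.089), GLE1 array 1 (0.0775) or GLE1 array 3 (0.0922).

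**Figure D3:**
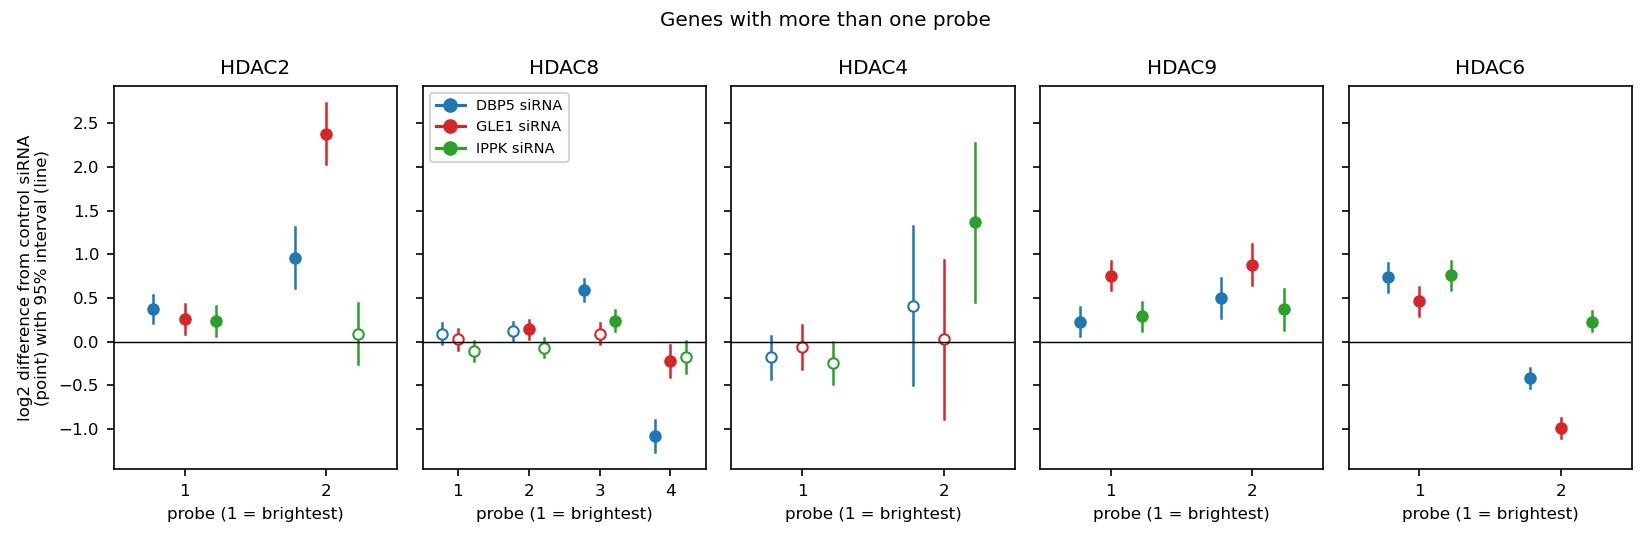
Log2 difference from control siRNA (y axis) of each probe (x axis, 1 is the brightest) of the 5 deacetylases with more than one probe. Points are differences of means over 3 arrays each, lines are 95% intervals of limma, and open points had an adjusted p of 0.05 or above. Probes 1 and 2 of HDAC6 lie on opposite sides of 0 after DBP5 and GLE1 siRNA (0.47 and -0.99 for GLE1), and probes 3 and 4 of HDAC8 after DBP5 siRNA (0.59 and -1.08).

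Over the 102 comparisons of the 17 probes in 6 contrasts, 61 passed, and each of these 61 had the same sign on all 3 slides. The slide differences come from the values that made the calls, so the shared sign is no separate support. Some comparisons that did not pass also had one sign. Over all kept probes, limma called 54.4%, 62% and 55% in DBP5, GLE1 and IPPK knock-down against control, 54.4% in GLE1 against DBP5, 60.2% in GLE1 against IPPK and 48.8% in DBP5 against IPPK knock-down. Slide and replicate number coincide, and each slide carried 1 array of each siRNA.

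The knock-downs were also compared with each other. In GLE1 against DBP5 knock-down, 3 deacetylases were lower and 2 higher by their brightest probes, with 54.5% of gene names called (28% lower and 26.5% higher). In GLE1 against IPPK knock-down, 3 were lower and 3 higher, with 60.1% called (30.7% lower and 29.4% higher). In DBP5 against IPPK knock-down, 1 was lower and 3 higher, with 48.8% called (25% lower and 23.8% higher). In the limma fit HDAC1 differed between every pair of knock-downs. It was lower by 1.33 in GLE1 than in DBP5 knock-down (-1.50 to -1.16, limma adjusted p = 2.32e-07), lower by 0.88 in GLE1 than in IPPK knock-down (-1.05 to -0.70, adjusted p = 3.68e-06), and higher by 0.45 in DBP5 than in IPPK knock-down (0.28 to 0.63, adjusted p = 0.00074). HDAC5 also differed in each pair. It was higher by 0.33 in GLE1 than in DBP5 knock-down (adjusted p = 0.0018), by 0.77 in GLE1 than in IPPK knock-down (3.17e-06) and by 0.44 in DBP5 than in IPPK knock-down (0.000315). By the methods' t-test, HDAC1 in DBP5 against IPPK knock-down missed the threshold (adjusted p = 0.0999), as did HDAC5 in GLE1 against DBP5 (0.0786) and in DBP5 against IPPK knock-down (0.111).

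HDAC3 was lower in GLE1 and in DBP5 than in IPPK knock-down, by 0.75 (-0.92 to -0.57, limma adjusted p = 1.44e-05) and 0.55 (-0.73 to -0.37, adjusted p = 0.000214). Between GLE1 and DBP5 knock-down it stood at -0.19 (adjusted p = 0.0611), and with the replicate number as a block this difference passed (adjusted p = 0.0181), as it did with normexp background correction (0.0256), in the authors' processed values (0.0337), and without control array 2 (0.0443) or IPPK array 1 (0.0396). HDAC9 was higher in GLE1 than in DBP5 knock-down by 0.52 (adjusted p = 0.000153) and than in IPPK knock-down by 0.46 (0.000313). HDAC6 by probe 1 was lower in GLE1 than in DBP5 knock-down by 0.27 (adjusted p = 0.01) and than in IPPK knock-down by 0.29 (0.00624), and by probe 2 lower by 0.57 (4.81e-06) and 1.22 (1.55e-08). By the methods' t-test, HDAC9 and probe 2 of HDAC6 missed the threshold in GLE1 against DBP5 knock-down (adjusted p = 0.0551 and 0.0557), and probe 1 of HDAC6 missed it against both (0.268 and 0.0582). With only the 6 arrays compared, probe 1 of HDAC6 also missed it in GLE1 against DBP5 knock-down (0.0557), and on single slides this difference was -0.01, -0.35 and -0.46. Among the second and later probes, that of HDAC2 was higher in GLE1 than in IPPK knock-down by 2.29 (4.71e-07) and than in DBP5 knock-down by 1.42 (2.09e-05). With normexp background correction these 2 differences of HDAC2 were 1.16 and 0.82, and in the authors' processed values 1.14 and 0.80, and both passed. Probe 4 of HDAC8 was lower in DBP5 than in IPPK knock-down by 0.90 (7.5e-06) and higher in GLE1 than in DBP5 knock-down by 0.85 (7.6e-06). Over the alternatives these differences ran from -0.98 to -0.58 and from 0.52 to 0.93, and both passed in all 21. Among the brightest probes, HDAC7 was lower in GLE1 than in DBP5 knock-down by 0.23 (adjusted p = 0.044), a call that held in 11 of 23 alternative analyses. HDAC8 by probe 1 was higher in GLE1 than in IPPK knock-down by 0.13 (0.0455), which held in 6 of 23, and higher in DBP5 than in IPPK knock-down by 0.20 (0.00881), which held in 20 of 23.

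For HDAC1, the genes with the most similar pattern were sought among 18425 gene names well above background on all 12 arrays, by the root mean square difference over the 12 arrays after each gene was set to 0 at its control mean. The closest were TAF11 (0.0768), a subunit of the general transcription factor TFIID, UPF3A (0.0928), a factor of nonsense-mediated decay, and OLIG1 (0.112), a transcription factor of the oligodendrocyte lineage. They were chosen for this likeness, so their values are a description. TAF11 differed from control by -0.01, -1.3 and -0.42 after DBP5, GLE1 and IPPK siRNA, UPF3A by -0.13, -1.40 and -0.48, and OLIG1 by -0.12, -1.35 and -0.54.

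The partners of these enzymes were counted in lists written from general knowledge, with 1 probe for each gene and the same limma fit. The shares of all gene names called, given above, are the background of these counts. In the Sin3 complex, a scaffold for HDAC1 and HDAC2, 3 of 15 genes fell and 5 rose after DBP5 siRNA (median 0.06), 8 fell and 6 rose after GLE1 siRNA (median -0.27), and 5 fell and 6 rose after IPPK siRNA (median 0.10). The count of lower Sin3 genes was 5 after DBP5 siRNA under scaling to the 75th percentile or with the replicate block, and 3 after IPPK siRNA without IPPK array 1. BRMS1L, a Sin3 subunit, rose by 1.89, 2.56 and 1.98 (adjusted p = 8.17e-09, 5.16e-10 and 4.16e-09), to 3.70 ± 0.283, 5.90 ± 0.0641 and 3.96 ± 0.17 times control (SD, n = 3). SAP18 rose by 1.3 after GLE1 siRNA (adjusted p = 1.24e-05) and by 0.92 after IPPK siRNA (0.000223), and SUDS3 by 0.91 after DBP5 siRNA (2.87e-05).

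In the NuRD complex, which joins HDAC1 and HDAC2 to a chromatin remodeller, 6 of 11 genes rose after DBP5 siRNA (median 0.23), with 0 lower by limma after adjustment, 3 lower at an unadjusted p under 0.05, and 2 lower by the methods' t-test, 1 of them after adjustment. After GLE1 siRNA 5 fell and 3 rose (median -0.19), and after IPPK siRNA 7 fell and 2 rose (median -0.23). The counts after IPPK siRNA were not stable: 4 NuRD genes were lower without control array 1, control array 3, IPPK array 2 or IPPK array 3, and the count higher was 0 or 1 in 13 of 21 alternatives. After DBP5 siRNA the count lower was above 0 in 9 of 21 alternatives, up to 3 with the replicate block, and the count higher ran from 2 to 6. MTA3 rose by 1.51, 1.65 and 1.07 (adjusted p = 2.35e-06, 6.99e-07 and 2.89e-05). CHD3, a remodelling ATPase, rose by 0.77 after DBP5 siRNA (8.13e-07), the histone chaperone RBBP4 fell by 0.78 after GLE1 siRNA (2.07e-06), and MTA1 fell by 0.54 after IPPK siRNA (2.4e-05). RBBP4 and RBBP7 belong to both this list and that of the Sin3 complex.

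In the CoREST complex, which pairs the deacetylases with the demethylase KDM1A, 2 of 9 genes fell and 5 rose after DBP5 siRNA (median 0.20), 1 fell and 2 rose after GLE1 siRNA (median 0.10), and 3 fell and 3 rose after IPPK siRNA (median 0.06). The 1 CoREST gene lower after GLE1 siRNA missed the threshold in 10 of 21 alternatives, and the count higher was 4 with the replicate block. The scaffold RCOR1 fell by 1.00 after DBP5 siRNA (adjusted p = 4.86e-07), to 0.501 ± 0.0351 of control (SD, n = 3), and ZMYM3 rose by 1.02 (4.3e-06). RCOR3 rose by 0.68 after GLE1 siRNA (1.89e-07), ZMYM2 rose by 0.64 after GLE1 siRNA (2.3e-06) and by 0.77 after IPPK siRNA (8.77e-07), and KDM1A fell by 0.60 after IPPK siRNA (0.0265). In the MiDAC complex of 3 listed genes, 2, 1 and 2 rose and 0, 0 and 1 fell after DBP5, GLE1 and IPPK siRNA (medians 0.17, 0.03 and 0.30). By limma at an unadjusted p under 0.05 the count of lower genes was 0 for DBP5 and 0 for GLE1, and the methods' t-test called 0 and 1. DNTTIP1, its dimerizing scaffold, rose by 0.17 after DBP5 siRNA (0.0251) and 0.70 after IPPK siRNA (1.66e-06). TRERF1 rose by 0.17 after DBP5 siRNA (0.0459) and by 0.16 after GLE1 siRNA (0.0488) and fell by 0.78 after IPPK siRNA (2.49e-06). The MiDAC counts of higher genes fell to 1 or 0 after DBP5 siRNA in 19 of 21 alternatives and to 0 after GLE1 siRNA in 17 of 21.

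For the NCoR complex, the partner of HDAC3, values are given for single genes with no count. The corepressor scaffold NCOR1 fell by 0.56 after DBP5 siRNA (adjusted p = 1.58e-05), by 0.36 after GLE1 siRNA (0.000293) and by 1.00 after IPPK siRNA (2.11e-07), the last to 0.499 ± 0.0113 of control (SD, n = 3). TBL1X fell by 0.66 after DBP5 siRNA (0.000562) and by 1.54 after GLE1 siRNA (6.93e-07), the latter to 0.344 ± 0.0291 of control, and stood at -0.04 after IPPK siRNA (0.779). Its paralog TBL1XR1 stood at 0.32 and 0.35 after DBP5 and GLE1 siRNA (0.198 and 0.154) and fell by 0.85 after IPPK siRNA (0.00389). GPS2 stood at -0.03 after DBP5 siRNA (0.689), and fell by 0.74 after GLE1 siRNA (8.58e-07) and by 0.33 after IPPK siRNA (0.000534).

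Of the 10 MEF2 factors and 14-3-3 proteins, 2 fell and 4 rose after DBP5 siRNA (median 0.20), 1 fell and 5 rose after GLE1 siRNA (median 0.47), and 2 fell and 4 rose after IPPK siRNA (median 0.23). The 14-3-3 protein YWHAZ rose by 2.09, 2.86 and 2.49 (adjusted p = 6.82e-09, 4.09e-10 and 1.84e-09), to 4.26 ± 0.407, 7.27 ± 0.244 and 5.61 ± 0.046 times control (SD, n = 3). MEF2C rose by 2.00 after GLE1 siRNA (7.64e-09) and by 2.07 after IPPK siRNA (1.1e-08), and MEF2A by 1.17 after DBP5 siRNA (4.69e-07). Of 9 kinases of class IIa deacetylases, 2, 3 and 3 fell and 5, 4 and 4 rose after DBP5, GLE1 and IPPK siRNA (medians 0.29, -0.04 and -0.01). The count of kinases lower after DBP5 siRNA was 1 without control array 2, control array 3, DBP5 array 1 or DBP5 array 3. Over the alternatives, the count of kinases higher ran from 0 to 6 after DBP5 siRNA, from 3 to 4 after GLE1 siRNA and from 2 to 4 after IPPK siRNA. CAMK4, a calcium-dependent kinase, fell by 1.2, 2.03 and 1.06 (4.87e-08, 7.86e-10 and 8.47e-08). SIK3 rose by 1.13 after DBP5 siRNA (8.02e-06), PRKD1 fell by 1.06 after GLE1 siRNA (7.01e-05) and SIK1 rose by 0.85 after IPPK siRNA (8.61e-06).

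Of 8 substrates and partners of HDAC6, 1, 4 and 3 fell and 4, 4 and 4 rose after DBP5, GLE1 and IPPK siRNA (medians 0.03, -0.08 and 0.03). The count lower after IPPK siRNA ran from 0 (without control array 3 or IPPK array 3, and by the methods' t-test) to 4 over the alternatives and moved by over 1.5 times in 11 of 21, and that after DBP5 siRNA was 4 under scaling to the 75th percentile. Cortactin (CTTN), an actin-binding substrate, rose by 0.97, 1.05 and 0.80 (adjusted p = 9.22e-06, 3.34e-06 and 3.92e-05). The chaperone HSP90AA1 rose by 0.33 after DBP5 siRNA (8.77e-05), the tubulin TUBA1A fell by 0.52 after GLE1 siRNA (9.23e-05), and the autophagy receptor SQSTM1 rose by 0.80 after IPPK siRNA (3.96e-07).

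Among 8 deacetylases of the other classes, HDAC11 and the NAD-dependent sirtuins, 2, 1 and 1 fell and 5, 6 and 3 rose after DBP5, GLE1 and IPPK siRNA (medians 0.65, 0.51 and 0.09). The mitochondrial SIRT4 rose by 0.95, 1.72 and 0.80 (adjusted p = 2.29e-05, 1.69e-07 and 8.23e-05). SIRT3 rose by 1.13 after DBP5 siRNA (3.19e-07), SIRT7 by 0.83 after GLE1 siRNA (1.17e-06) and SIRT5 by 0.94 after IPPK siRNA (1.91e-07). Of 13 acetyltransferases, which add the mark that the deacetylases remove, 2, 4 and 2 fell and 5, 6 and 5 rose (medians 0.13, 0.16 and 0.09). The count of acetyltransferases lower after DBP5 siRNA was 1 without control array 2 and ran from 0 to 3 over the alternatives. The count higher ran from 1 to 6 after DBP5 siRNA and from 3 to 6 after GLE1 and after IPPK siRNA. KAT6B rose by 0.79, 0.79 and 0.64 (0.000104, 7.5e-05 and 0.000481), KAT2B by 1.56 after GLE1 siRNA (9.88e-07) and 1.05 after IPPK siRNA (3.05e-05), and NCOA3 fell by 1.12 after DBP5 siRNA (9.18e-06).

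**Figure D4:**
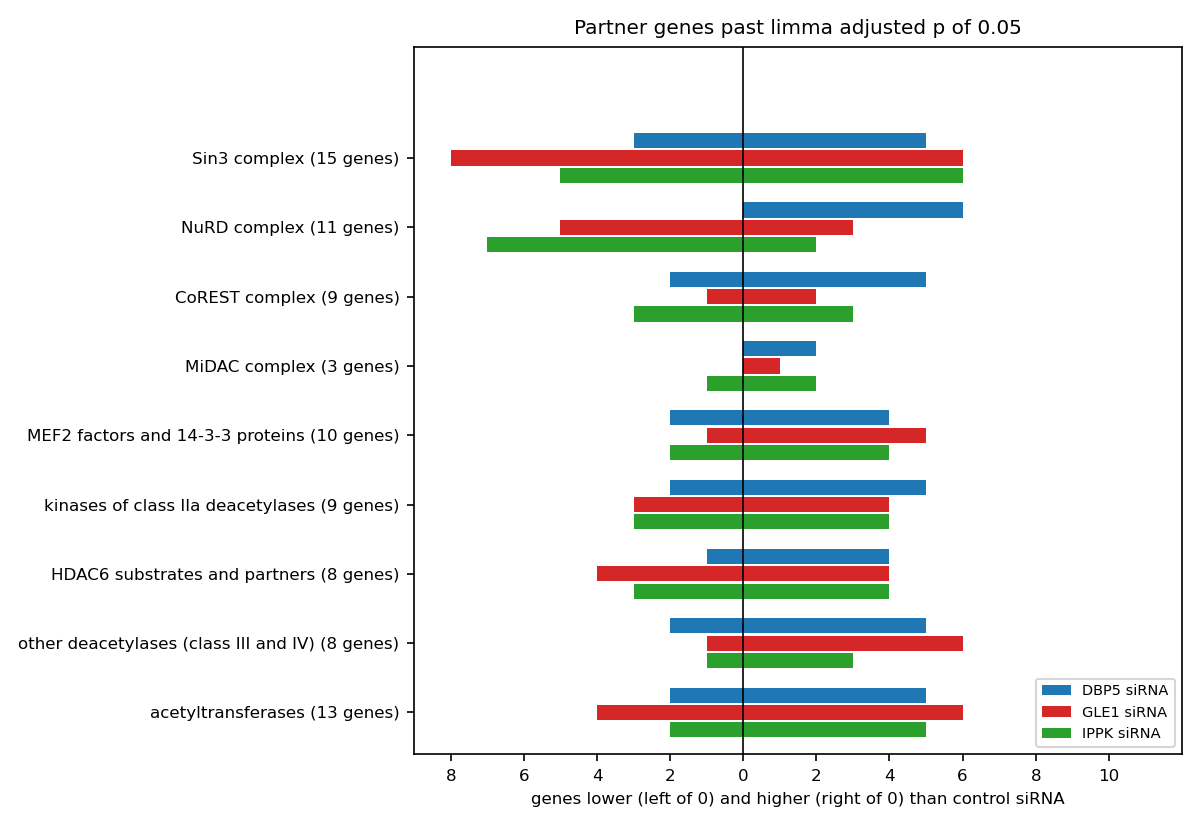
Number of genes (x axis) lower (left of 0) and higher (right of 0) than control siRNA at a limma adjusted p of 0.05 in each of 9 lists of partner genes (y axis, number tested in parentheses), after DBP5, GLE1 and IPPK siRNA. The NuRD list has 6 genes higher after DBP5 siRNA and 7 lower after IPPK siRNA (4 without one of 4 of the arrays), and the list of other deacetylases has 6 higher after GLE1 siRNA.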

How the data were processed

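Cytoplasmic RNA from U2OS cells under 4 siRNAs was measured on 12 one-colour arrays. The sample labels gave group and replicate number. For every array the authors deposited Feature Extraction output (version 10.7.3.1) with each spot's linear intensity after background subtraction and its quality flags. A second deposited table holds log2 values that the authors normalized by LOESS regression. Its columns followed log2 median intensity with no subtraction (Pearson's r of 0.9998 or more over the probes of an array) rather than subtracted intensity (0.9612 to 0.9665), so dim probes show smaller differences in it. It served as an alternative.

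Control spots and outlier spots (169 to 358 of 43118 per array) were removed, the remaining spots of each probe were averaged, and log2 subtracted intensities were normalized by cyclic loess. Saturation marked 0 spots. A RefSeq table (GRCh38.p14, used for names and promoters, while the array design names hg19) named 26449 of 34127 probes (77.5%) by accession. A probe was kept if at least 1 siRNA had it well above background in all 3 replicates (25879 probes, 20821 gene names). limma 3.58.1 in R 4.3.3 fitted one mean per siRNA over all 12 arrays, with two-sided tests and Benjamini-Hochberg adjustment over all kept probes in each of 6 contrasts at 0.05. Adjusted p-values in the text are from this fit unless named otherwise, and ranges in parentheses beside a difference are its 95% intervals. The p-values rest on the spread between arrays within groups, pooled over all siRNAs and drawn toward the spread of other probes. This fit has no replicate block, so differences between slides are part of that spread.

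The named genes are the 10 members with all probes, the 2 genes of each partner list with the largest difference past the threshold in each knock-down, the 3 genes most like HDAC1, the targeted genes and the markers, and for the NCoR complex each gene given here. Some listed genes are not reported here, so the NCoR complex is given gene by gene and is left out of the counts and the plot of lists. The members, lists and tests were chosen with earlier results of these data known. KAT6A and NEAT1 had no probe by accession, IBSP was below the filter, and HDAC5 was not in the promoter table.

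To check whether replicate numbers pair the arrays, deviations from group means were correlated across probes. The 18 pairs with the same number and different siRNAs gave 0.309 to 0.52, and the 36 pairs with different numbers gave -0.327 to -0.008. Each number corresponds to one slide. The numbers were therefore taken to pair the arrays, and every contrast was also fitted with a replicate block.

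Other settings tried were 75th percentile scaling, quantile normalization, normexp with an offset of 50 (on median signal, since no mean signal was in the files), the authors' processed values, no dim-probe filter, a stricter one on all 12 arrays, 1 probe per gene, the mean over a gene's probes, the replicate block, fits on the 6 arrays compared, each array left out (the other groups then share one estimate of the spread), the methods' t-test (two-sided, with arrays of one number as a pair), and Dunnett's test by multcomp 1.4.28 for the brightest probes. For the arrays themselves the methods name rank products and a cut on fold change, which were not run here. The limma fit was also tested on simulated data for 25879 probes, where 200 were changed by 1 on the log2 scale. It recovered 171 of them in the DBP5, 162 in the GLE1 and 173 in the IPPK comparison, and called 7, 6 and 14 others. The simulated arrays were independent, with no slide effect, and far fewer probes were changed than limma called in the data. These numbers therefore do not measure the error rates of the calls reported here. Tables were handled with pandas 2.3.3 and figures drawn with matplotlib 3.10.9 in Python 3.11.15.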

Additional observations from a re-analysis of the deposited data

Results flagged for a closer look

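HDAC3 and probe 2 of HDAC6 changed in opposite directions in different knock-downs, and the differences between knock-downs were tested in the same limma fit. HDAC3 fell by 0.52 after GLE1 siRNA and by 0.32 after DBP5 siRNA and rose by 0.23 after IPPK siRNA. The GLE1 knock-down differed from the IPPK knock-down by -0.75 (limma adjusted p = 1.44e-05) and the DBP5 knock-down from the IPPK knock-down by -0.55 (adjusted p = 0.000214). Both differences passed in all 23 alternatives, whereas the rise after IPPK siRNA against control passed in 17 of 24.

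Probe 2 of HDAC6 fell by 0.99 after GLE1 siRNA and by 0.42 after DBP5 siRNA and rose by 0.23 after IPPK siRNA. The GLE1 knock-down differed from the IPPK knock-down by -1.22 (adjusted p = 1.55e-08) and the DBP5 knock-down from the IPPK knock-down by -0.65 (adjusted p = 2.72e-06), and both passed in all 21 alternatives. Probe 1 of HDAC6, of the same accession, rose in all 3 knock-downs.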

How the results depend on the processing

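Of 61 comparisons of deacetylase probes that passed, 28 passed in every alternative run for them, among them HDAC1 after GLE1 and IPPK siRNA, HDAC3 and HDAC9 (probe 1) after GLE1 siRNA and HDAC5 after IPPK siRNA. Over all probe comparisons and alternatives, 2148 kept their side of the threshold with no called value turned, 99 lost a call, 34 gained one, and 5 turned direction with a call before or after. Among the 2148, 30 turned sign with no call in either analysis (at most 0.18 in size in the main analysis), 6 of them with the mean of a gene's probes. The 5 with a call came with that mean in place of the brightest probe: HDAC6 after GLE1 siRNA (-0.26, against 0.47), HDAC4 after IPPK siRNA (0.56, against -0.24), HDAC2 in GLE1 against DBP5 knock-down (0.65, against -0.12), HDAC4 in GLE1 against IPPK knock-down (-0.58, against 0.19) and HDAC8 in DBP5 against IPPK knock-down (-0.04, against 0.20). With that mean, the number of deacetylases lower in DBP5 than in IPPK knock-down was 2, against 1, and after GLE1 siRNA 3 were lower and 2 higher, against 2 and 3. With only the 6 arrays compared, 1 was lower in GLE1 than in DBP5 knock-down, against 3.

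After adjustment the methods' t-test called 0 lower and 0 higher after DBP5 siRNA (2 and 4 at an unadjusted p under 0.05), 2 higher after IPPK siRNA (against 4), 1 lower and 0 higher in GLE1 against DBP5 knock-down (2 and 2 unadjusted), and 0 higher in DBP5 against IPPK knock-down (against 3, and 3 unadjusted). The cause of these shifts was not tested. When each array was left out, the counts of deacetylases stayed between 2 and 3 higher after DBP5 siRNA, 2 and 3 lower after GLE1 siRNA, 2 and 3 lower and 2 and 4 higher after IPPK siRNA, and the count of 2 higher came without control array 1 or without IPPK array 2, where HDAC2 and HDAC3 were lost. With the replicate block, 4 were lower in GLE1 than in DBP5 knock-down, against 3, and the block moved no count of deacetylases by over 1.5 times. It made HDAC3 pass there (adjusted p = 0.0181), and probe 4 of HDAC8 after IPPK siRNA (0.0293) and probe 2 of HDAC4 in DBP5 against IPPK knock-down (0.00598). The median over all genes moved between -0.07 and 0.01 across scalings, each of which brings the arrays to a common level. Of 1260 recomputed counts of the partner lists, 1140 stayed within 1.5 times. Of the others, 37 belonged to the MiDAC, 29 to the NuRD and 14 to the CoREST list and 16 to the HDAC6 partners. Precision is limited by 3 arrays per siRNA and, for dim probes (among them HDAC4 and probe 2 of HDAC2 and HDAC9), by signal over background.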
